A study of Rattus norvegicus with 18 samples.

Results

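The slow-twitch muscle fibre genes are 8 genes that mark slow skeletal muscle fibres: Myl2, Myl3, Myh7, Tnni1, Tnnt1, Tnnc1, Atp2a2 and Mb. They were found on the array by symbol, and 5 of the 8 (Myl2, Myl3, Myh7, Tnni1 and Atp2a2) had probe sets of their own, 11 of the 8740 probe sets tested. Tnnt1, the slow fibre's troponin T, Tnnc1, the troponin C of slow fibres and heart, and Mb, the oxygen store myoglobin, were not analysed here, since the annotation pairs no probe set with them. Where a gene had several probe sets, the one with the highest mean signal stood for it, and the others are given beside it.

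The RNA came from 18 Rat U34A arrays, on which a gene is read by a set of short probes. Intact female Sprague-Dawley rats of 6 weeks of age (young), 26 weeks (adult) or 52 weeks (older) received an intramedullary rod and a closed mid-shaft fracture of the left femur, and were killed at 1 of 5 times from 0.4 week (3 days in the labels) to 6 weeks later. The 0 time rats had no fracture and served as sham controls, though the source label of the young 0 time array names callus while its title gives no fracture. The middle 1 of 3 parts of the femur's length was taken, with callus, cortical bone and marrow, and muscle is not named among its contents. Each array read the pooled RNA of 2 rats and each age and time point has 1 array, so the 3 ages are the replicates of a week, and no age and time point has a spread of its own.

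Skeletal muscle fibres come in slow and fast types, which build the same contractile machine from different genes. Slow fibres contract slowly, resist fatigue and live on oxidative metabolism. Their thick filaments hold the myosin heavy chain of Myh7 with the light chains of Myl2 and Myl3, their thin filaments are switched by the troponins that include Tnni1, and the pump of Atp2a2 returns calcium to the sarcoplasmic reticulum. The heart uses most of these genes too, and Atp2a2 is also made outside muscle.

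The measured genes moved together, and the promoters of 3 are shown, Myl3 with a deep loss, Tnni1 with a smaller one and Atp2a2 with the smallest. RefSeq promoter windows of 300 bases (250 before a start site and 50 after it, build GRCr8) were found for 6 of the 8 genes, with none for Myl2 and Tnnc1. The window of Myh7, chr15:32438145-32438444 on the minus strand, lies inside the annotated gene (chr15:32416525-32439851) and is not shown. Capitals mark, on either strand, the E-box CANNTG (bound by the MyoD family of muscle factors), the MCAT element CATTCC (bound by TEAD factors) and the CArG box (bound by serum response factor). Myl3 lies at chr8:119616844-119617143 (plus strand), Tnni1 at chr13:49781279-49781578 (plus strand) and Atp2a2 at chr12:39733269-39733568 (plus strand).
Myl3: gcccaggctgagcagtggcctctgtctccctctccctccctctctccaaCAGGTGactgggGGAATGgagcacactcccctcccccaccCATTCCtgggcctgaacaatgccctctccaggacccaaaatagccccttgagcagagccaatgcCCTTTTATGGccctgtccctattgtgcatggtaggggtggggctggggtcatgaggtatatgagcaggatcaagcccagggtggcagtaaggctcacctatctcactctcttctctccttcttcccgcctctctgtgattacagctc
Tnni1: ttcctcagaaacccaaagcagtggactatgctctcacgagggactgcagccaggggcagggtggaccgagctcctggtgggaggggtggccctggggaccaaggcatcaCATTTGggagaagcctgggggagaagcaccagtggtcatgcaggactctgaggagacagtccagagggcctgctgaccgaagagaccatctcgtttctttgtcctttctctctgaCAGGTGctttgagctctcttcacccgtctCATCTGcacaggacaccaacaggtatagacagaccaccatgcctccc
Atp2a2: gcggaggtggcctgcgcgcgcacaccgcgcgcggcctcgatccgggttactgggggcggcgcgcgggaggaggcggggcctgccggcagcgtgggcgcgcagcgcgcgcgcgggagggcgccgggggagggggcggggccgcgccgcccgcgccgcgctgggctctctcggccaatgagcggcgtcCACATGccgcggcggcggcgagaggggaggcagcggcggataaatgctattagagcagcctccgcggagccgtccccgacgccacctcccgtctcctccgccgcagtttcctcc

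The Myl3 promoter held 1 E-box, 2 MCAT elements and 1 CArG box, the Tnni1 promoter 3 E-boxes and the Atp2a2 promoter 1 E-box. Counted with the Myh7 window, an E-box was in 6 of 6 of the genes' windows and in 72.1% of all 33469. MCAT was in 1 of 6 (Myl3), against 14.2% of all, and the CArG box in 1 of 6 (Myl3), against 1.64% of all. The CACC box, CACCC, was in 5 of 6 and in 54.9% of all, the TATA box, TATAAA, in 2 of 6 (Tnnt1 and Mb) and in 14.2% of all, and the MEF2 box in 0 of 6 and in 0.565% of all. The Atp2a2 promoter was 79.0% G and C, the Myl3 promoter 58.3% and the Tnni1 promoter 58.0%, beside a median of 51.7% over all promoters. A match is a run of letters and not a site.

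Myl2, the regulatory light chain of slow and ventricular myosin, had the deepest loss of the 5 as read by their brightest probe sets. Its signal in young rats was 9604 at 0 time, and after fracture it was 327 (0.4 week), 1218.5 (1 week), 2814 (2 weeks), 7477 (4 weeks) and 5494 (6 weeks). In adult rats it was, in the same order of weeks, 19295 at 0 time and then 6.5, 590.5, 6302, 6186 and 6642. In older rats it was 17329 at 0 time and then 329, 324, 4002, 5031 and 8143. The 0.4 and 1 week arrays of all 3 ages lay below every other array, and by 4 weeks the 3 ages read between 5031 and 7477. The adult 0.4 week value lay below 20, the floor to which low signals were set, so the Myl2 fold change there depends on that floor.

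Myl3, the essential light chain of the same myosin, followed the same course. Its signal in young rats was 8883 at 0 time and then 514, 1910, 3872, 7127 and 5188. In adult rats it was 24289 at 0 time and then 363, 1637, 5586, 10189 and 8754. In older rats it was 25502 at 0 time and then 3616, 1216, 5781, 5953 and 10209. The older 0.4 week array was less depressed than the young and adult ones, and the lowest older value came at 1 week.

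Myh7 is the slow myosin heavy chain, the motor of the fibre. In young rats it read 11918 at 0 time and then 1349, 4843, 4920, 11019 and 8889. In adult rats it read 30845 at 0 time and then 664, 3553, 7606, 14655 and 10472. In older rats it read 30109 at 0 time and then 4110, 1595, 10028, 8405 and 15245. As with Myl3, the older rats had their lowest value at 1 week and the other ages at 0.4 week. Its probe set carries the suffix that Affymetrix gives to probes shared by a sequence family, and Myh6, the neighbouring and nearly identical heart gene, may add to it.

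Tnni1, the inhibitory troponin of slow fibres, which the adult heart replaces with Tnni3, had a smaller loss. Young rats read 2292 at 0 time and then 587, 1096, 1542, 1960.2 and 1632. Adult rats read 7709 at 0 time and then 366, 1964, 4127, 2605 and 2753. Older rats read 5775 at 0 time and then 1099.5, 1818, 3927, 2766 and 3408. At 2 weeks the adult and older arrays already held more than they did at 4 or 6 weeks, while the young arrays after fracture were highest at 4 weeks.

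Atp2a2, the calcium pump, had the smallest loss. Young rats read 7307 at 0 time and then 2334, 3087, 3690.1, 5511 and 5137. Adult rats read 16115.5 at 0 time and then 1358, 4426, 6577, 4637 and 6872. Older rats read 13449 at 0 time and then 4313, 4856, 5064, 4984 and 7115. The older series stayed between 4313 and 5064 at its first 4 times after fracture, and no array of any age after fracture reached its own control with this probe set.

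**Figure D1:**
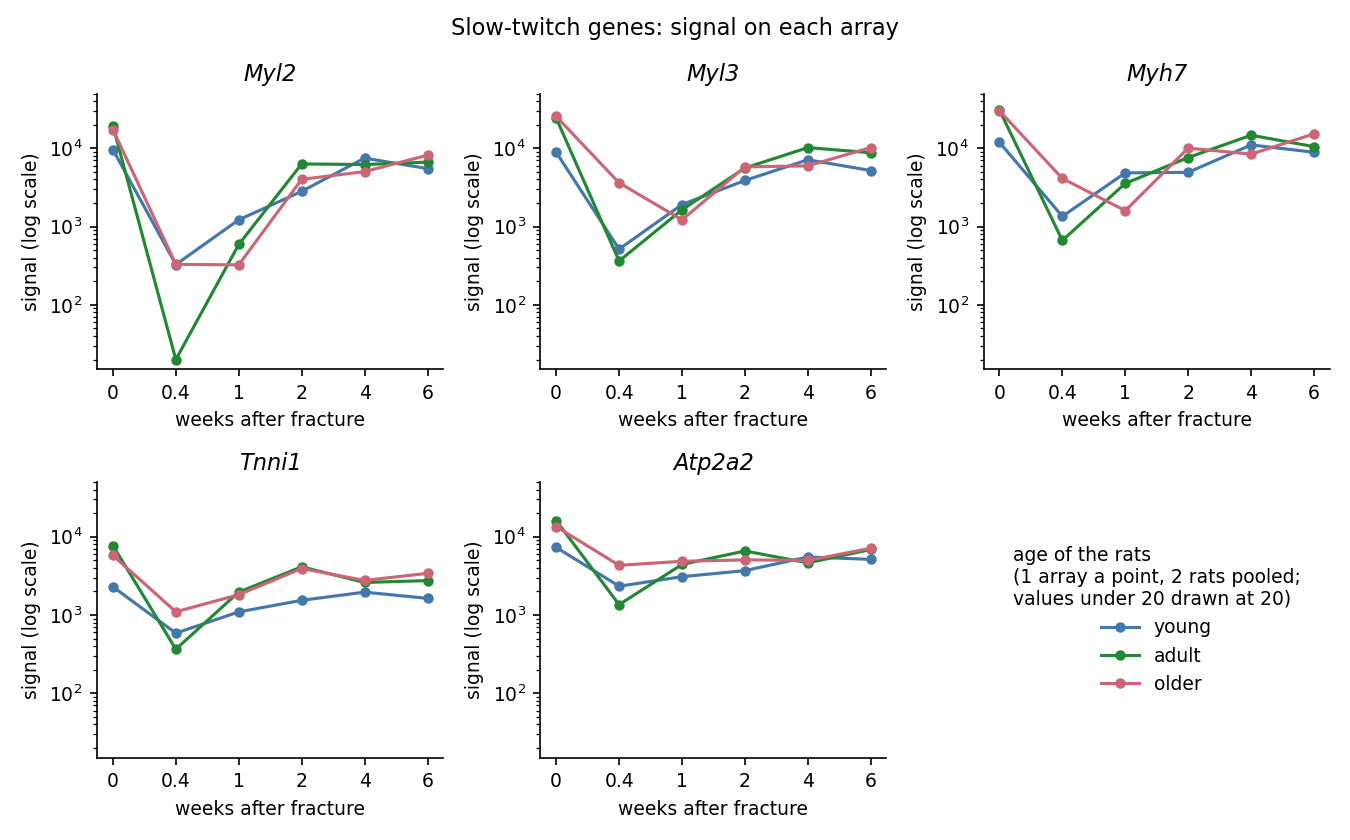
Signal (arbitrary fluorescence units, log axis) of the brightest probe set of each slow-twitch gene at 0 time and 5 times after fracture (weeks), with 1 line for each age and 1 array (2 rats pooled) a point. All 5 genes drop by 0.4 or 1 week and climb afterwards, and the Myl2 value of 6.5 of the adult 0.4 week array is drawn at 20.

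The fall from 0 time was tested on the log2 scale with limma on all 18 arrays. At 0.4 week all 5 genes fell, while 17.1% of all probe sets tested were called lower. Myl2 fell by 6.84 on the log2 scale (SE 0.90, 95% CI -8.82 to -4.85, adjusted p = 0.000522), Myl3 fell by 4.33 (SE 0.65, adjusted p = 0.000986) and Myh7 by 3.85 (SE 0.63, adjusted p = 0.00158). Tnni1 fell by 2.92 (SE 0.37, adjusted p = 0.000424) and Atp2a2 by 2.29 (SE 0.35, adjusted p = 0.00106). These are falls to about 1 part in 114 of the 0 time signal for Myl2, in 20.1 for Myl3, in 14.4 for Myh7, in 7.56 for Tnni1 and in 4.88 for Atp2a2. The median change was -3.85 over the 5 genes and -0.13 over all probe sets. Each array of 0.4 week lay below each array of 0 time for all 5 genes, and the share of all probe sets that did so is not given here.

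At 1 week all 5 genes were still lower than at 0 time, beside 20.4% of all probe sets. The log2 difference was -4.58 for Myl2, -3.50 for Myl3, -2.89 for Myh7, -1.57 for Tnni1 and -1.53 for Atp2a2, with adjusted p between 0.00347 and 0.00908. At 2 weeks 1 of the 5, Atp2a2, was called lower (log2 difference -1.23, SE 0.35, adjusted p = 0.0333), beside 10.3% of all probe sets, and the other 4 had differences between -1.83 (Myl2) and -0.68 (Tnni1) with adjusted p between 0.0689 and 0.205. The F test over the 5 weeks called 5 of 5, beside 26.4% of all probe sets.

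Some of these calls ended when 1 age was left out. Without the adult arrays, Myl3 and Myh7 were no longer called at 0.4 week (adjusted p = 0.075 and 0.0902) nor at 1 week (adjusted p = 0.0679 and 0.0864), which left 3 genes at each week. Of all 8740 probe sets, 182 were then called lower at 0.4 week and 238 at 1 week, against 1493 and 1781 on all arrays. Without the older arrays 1 gene of the 5 (Myl3) was called at 1 week, beside 129 of all probe sets. Averaging the 4 probe sets of Atp2a2 took its fall at 0.4 week to 0.51 on the log2 scale (adjusted p = 0.0843) and at 1 week to 0.30 (adjusted p = 0.286). The Atp2a2 call at 2 weeks ended without any 1 of the ages (adjusted p between 0.0817 and 0.263).

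**Figure D2:**
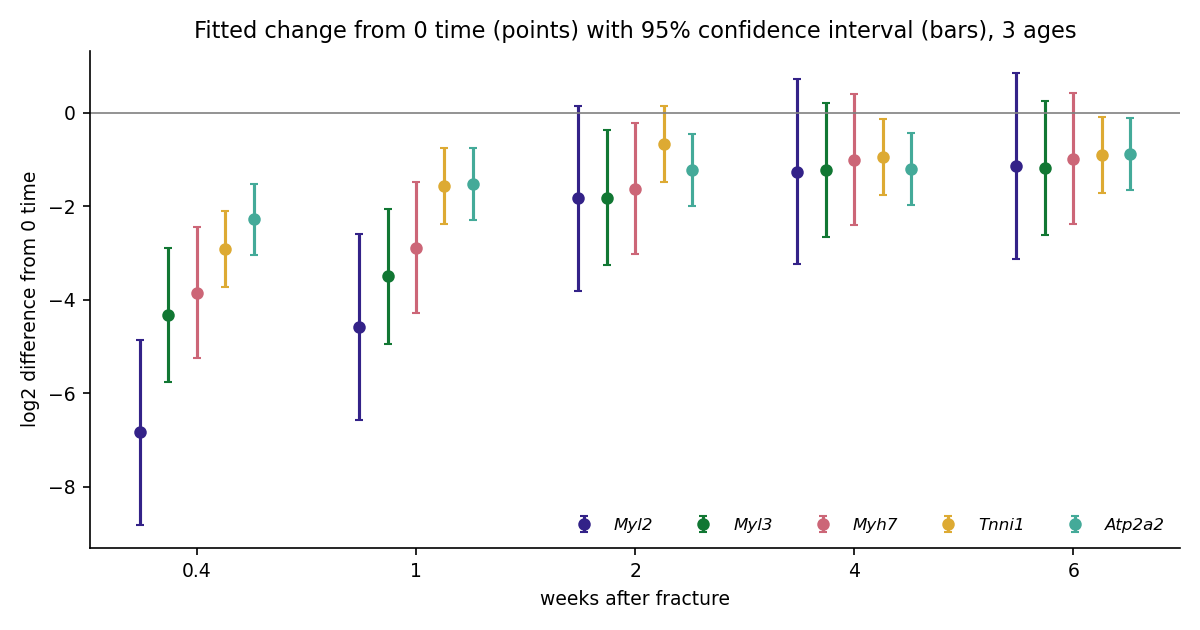
Fitted log2 difference from 0 time (points) of the 5 slow-twitch genes at each week after fracture, with 95% confidence intervals (bars), from 18 arrays with the 3 ages as replicates. The intervals lie below 0 for all 5 genes at 0.4 and 1 week, and the points lie between -1.26 and -0.89 at 4 and 6 weeks.

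The genes rose again between the early and the late weeks. The mean of 4 and 6 weeks was above that of 0.4 and 1 week for all 5, beside 13.0% of all probe sets called higher. Myl2 rose by 4.51 on the log2 scale (SE 0.64, adjusted p = 0.000852), Myl3 by 2.71 (SE 0.46, adjusted p = 0.00228), Myh7 by 2.37 (SE 0.45, adjusted p = 0.00397), Tnni1 by 1.31 (SE 0.26, adjusted p = 0.00495) and Atp2a2 by 0.86 (SE 0.25, adjusted p = 0.0289). The 5 genes, read by their brightest probe sets, had the same order in the return as in the fall at 0.4 week, which share the 0.4 week arrays. The Atp2a2 call ended when any 1 age was left out (adjusted p between 0.0848 and 0.176), when the arrays were scaled to their medians (adjusted p = 0.0641) and without the young 4 and 6 week arrays (adjusted p = 0.15), and with its 4 probe sets averaged the return was -0.14. Without the adult arrays 2 of the 5 genes were called, beside 285 of 8740 probe sets called higher, and without the older arrays 3, beside 551. On all arrays 1140 probe sets were called higher.

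At 4 and 6 weeks the signals of the brightest probe sets still lay below the control in every age, and no gene passed the test at these weeks. All 75 of their values after fracture and all 30 values at 4 and 6 weeks lay below the 0 time array of the same age, the latest 30 between 23.3% and 92.5% of it. How often other probe sets did so is not given here. At 6 weeks Myl2 stood at 57.2% of the control in young rats, 34.4% in adult rats and 47.0% in older rats. Tnni1 stood at 71.2%, 35.7% and 59.0% in the same ages, and Atp2a2 at 70.3%, 42.6% and 52.9%. These shares rest on 1 control array per age, and each adult control signal except that of Myl3 was the highest of the 18 arrays.

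At 4 weeks 0 of 5 genes were called lower than at 0 time, beside 1.77% of all probe sets, with log2 differences between -1.26 and -0.95. At 6 weeks 0 of 5 were called, beside 0.32% of all, with log2 differences between -1.19 (Myl3) and -0.89 (Atp2a2). By limma without adjustment, Tnni1 and Atp2a2 had a p under 0.05 at both weeks, beside 1049 and 903 of all probe sets lower at that level. With 4 and 6 weeks averaged, a comparison chosen after the values were seen, 0 of 5 were called, beside 3.56% of all probe sets. Atp2a2 came nearest there, with a log2 difference of -1.05 (95% CI -1.71 to -0.38, adjusted p = 0.0536), while that of Myl2 was -1.20 with an interval that included no change (-2.92 to 0.51). A remaining loss of more than 2-fold lay within the interval of each gene, and full return lay within those of Myl2, Myl3 and Myh7.

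The probe sets of 1 gene did not all read alike. The other 2 probe sets of Myl2 fell by 3.40 and 5.27 on the log2 scale at 0.4 week, and the second of these read 125.5 rather than 6.5 on the adult 0.4 week array, where the brightest lay below the floor. Both were also called lower at 2 weeks (log2 difference -1.49 and -1.57, adjusted p = 0.0111 and 0.0486). The first of them was also called lower over 4 and 6 weeks against 0 time (log2 difference -1.08, adjusted p = 0.0324). The second Myh7 probe set fell by 3.71 at 0.4 week, and a set annotated to both Myh7 and Myh6 fell by 4.25. In young rats these sets passed the control on some late arrays, the second Myh7 set at 117% of it at 4 weeks and the set of both genes at 143% at 4 weeks and 109% at 6 weeks. The order of the losses also depended on the probe set, since the first of the other Myl2 sets fell by less than the brightest sets of Myl3 and Myh7.

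Atp2a2 was the exception. Its second brightest probe set (rc_AA957510_s_at), whose suffix marks probes shared by several transcripts, rose by 1.03 on the log2 scale at 0.4 week (SE 0.13, adjusted p = 0.0005), by 0.73 at 1 week and by 0.61 at 2 weeks, all called, beside 14.1%, 14.6% and 9.49% of all probe sets called higher at these weeks. Its signal at 0.4 week was 2479, 2777 and 2365 in young, adult and older rats, against 1524, 1057 and 1185 at 0 time. Across the 18 arrays it correlated with the brightest set at r = -0.83. The remaining 2 sets (J04024_at and rc_AA800212_at) were dim, at most 443 on any array, and were called at no week. By week, a fall of Atp2a2 was called for its brightest probe set alone. Within older rats, rc_AA800212_at was called lower over 0.4 and 1 week (log2 difference -1.76, adjusted p = 0.0138), where the brightest set was not (-1.56, adjusted p = 0.109).

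**Figure D3:**
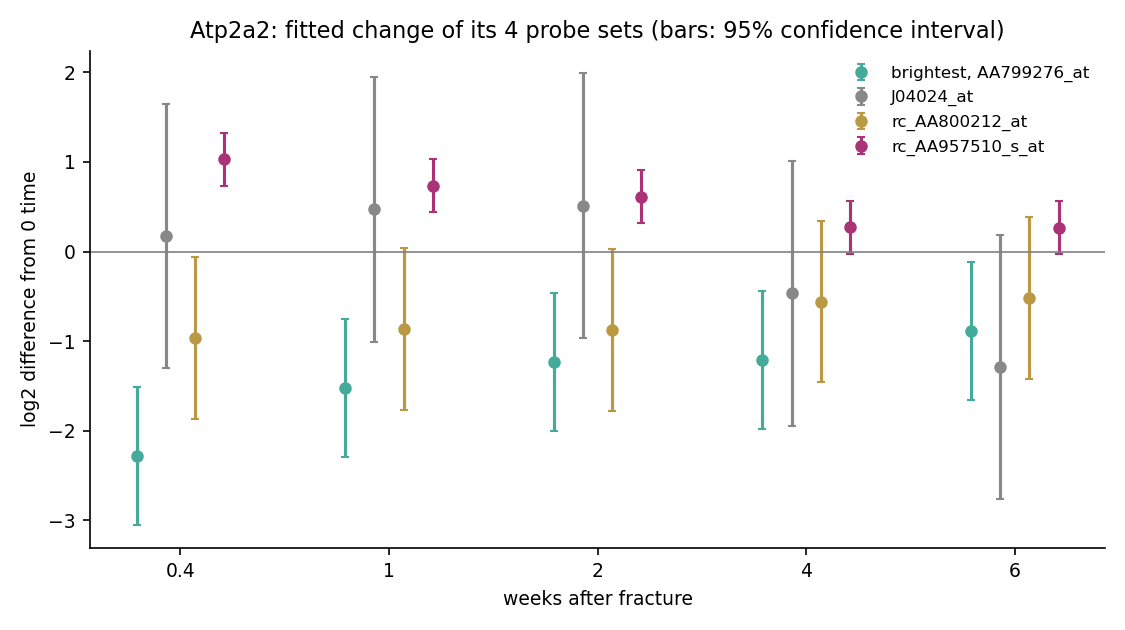
Fitted log2 difference from 0 time (points) of the 4 Atp2a2 probe sets at each week after fracture, with 95% confidence intervals (bars), from 18 arrays. The brightest set lies below 0 at every week, from -2.29 at 0.4 week to -0.89 at 6 weeks, and rc_AA957510_s_at lies above 0, at 1.03 at 0.4 week.

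The 3 ages ran the same course with different depth and timing. In young and in adult rats all 5 genes were lowest at 0.4 week. In older rats Tnni1 and Atp2a2 were lowest at 0.4 week, while Myl2, Myl3 and Myh7 were lowest at 1 week. The median of the 5 genes at 0.4 week was 11.3% of the own control in young rats, 2.15% in adult rats and 14.2% in older rats. At 1 week it was 40.6%, 11.5% and 5.30% in the same order of ages. At 4 weeks it was 80.2%, 33.8% and 29.0%, and at 6 weeks 70.3%, 35.7% and 50.6%. The young series was nearest to its control at 1, 2, 4 and 6 weeks, but that control, the array whose source label names callus, was also the lowest of the 3. At 0 time Myh7 read 30109 in older rats and 30845 in adult rats, against 11918 in young rats. The other 4 genes had the same order of young below both. No control was taken later than the age at fracture, so growth of the young rats cannot be told apart from time after fracture.

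Within single ages, with 2 adjacent weeks as the replicates, the loss at 0.4 and 1 week was called for 0 of 5 genes in young rats (beside 1.41% of all probe sets), 5 of 5 in adult rats (13.1%) and 1 of 5 in older rats (Myl2, 16.9%). By limma 1 of the 5 had an unadjusted p under 0.05 in young rats, 5 in adult rats and 4 in older rats. Of all 8740 probe sets 840, 1941 and 2304 were lower at that level in the same ages. The return was called for 0 of 5 in young rats (4.55% of all called), 0 of 5 in adult rats (2.38%) and 0 of 5 in older rats (2.68%). Its unadjusted p by limma was under 0.05 for 1, 3 and 1 genes, beside 1217, 1095 and 1014 of all probe sets higher at that level. The spread used in these tests was pooled over the 3 ages, and it includes any change between the 2 weeks of a pair. Calls in 1 age and not in another do not show that the ages differ, so the differences were tested themselves.

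No difference between older and young rats was called for any of the 5 genes. At 4 and 6 weeks the level of Myl2 was 5031 and 8143 in older rats, against 7477 and 5494 in young rats, a log2 difference of -0.0019 (95% CI -3.37 to 3.37). Over the 5 genes the older minus young difference at these weeks ran from -0.0019 to 0.78, with 0 of 5 called beside 1.01% of all probe sets. The difference of the return ran from -0.72 to 0.95, with 0 of 5 called beside 0.114% of all, and the difference of the loss from -1.80 to -0.11, with 0 of 5 called beside 3.56% of all. For none of these did a gene have an unadjusted p under 0.05 by limma. The lowest interval bound was -7.64 and the highest 5.72, so differences of several fold between ages could not be detected with these arrays.

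Over all 15 arrays after fracture, with week as a term, Tnni1 was higher in older than in young rats at each of the 5 weeks, by 0.91 on the log2 scale (95% CI 0.30 to 1.52). Its unadjusted p was 0.00821 by limma, and its adjusted p of 0.244 did not pass. Tnni1 was also higher in the older 0 time array (5775) than in the young one (2292). In this comparison 0 of 5 genes and 0.0% of all probe sets were called, with 516 probe sets higher and 587 lower at an unadjusted p under 0.05. The other 4 genes had log2 differences between -0.28 (Myl2) and 0.69 (Myl3). The ratio of the 3′ to the 5′ probe set of Gapdh, a sign of RNA quality, was 3.48 and 6.57 on the young 4 and 6 week arrays, against 1.15 to 1.83 on the other 16 arrays, and its part in the young values was not tested.

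Fast-fibre isoforms, the counterparts of the slow genes in fast fibres, also fell, with a median nearer to 0. At 0.4 week 10 of 11 measured were called lower, with a median log2 change of -2.31 beside -3.85 for the 5 slow genes, where 17.1% of all probe sets were called lower. Myh2, the heavy chain of the fast oxidative fibre, fell by 5.25 (adjusted p = 6.54e-05), Pvalb, the calcium buffer of fast fibres, by 4.77, and Casq1, their calcium store, fell by 4.28. Tnni2, the fast partner of Tnni1, fell by 2.51, Mybpc2, a thick filament protein, by 2.31, and Atp2a1, the fast partner of Atp2a2, by 2.32. The ranges of the 2 groups overlapped, since the slow genes ran from -6.84 to -2.29 and the fast from -5.25 to -0.62. Their median stayed nearer to 0 at 1 week (-1.27 for the fast isoforms, with 9 of 11 called lower against 20.4% of all probe sets, beside -2.89 for the slow genes) and at 6 weeks (-0.43 beside -0.99, with none called in either).

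**Figure D4:**
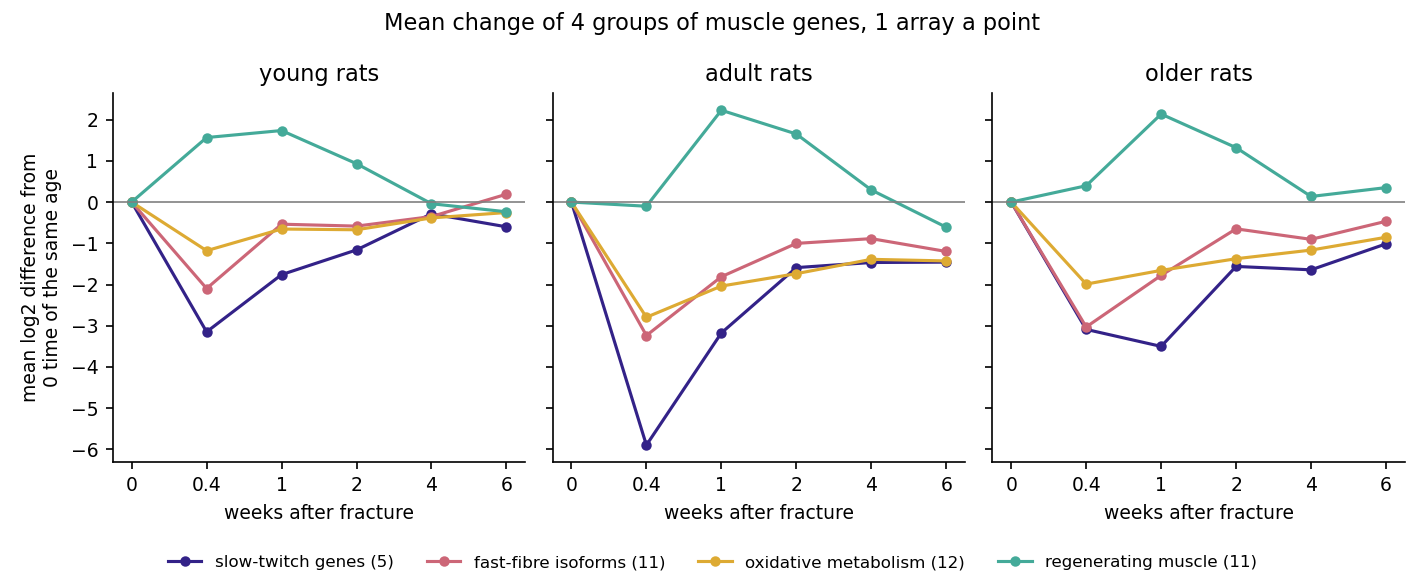
Mean log2 difference from the 0 time array of the same age, by weeks after fracture, for the slow-twitch genes (5), fast-fibre isoforms (11), oxidative genes (12) and genes of regenerating muscle (11), 1 array a point. In adult rats at 0.4 week the slow-twitch mean is -5.90 and the fast-fibre mean -3.24, while in older rats they are -3.09 and -3.03, and the regenerating group is above 0 in all 3 ages at 1 and 2 weeks.

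The gap between slow and fast genes was not the same on each array. In young rats at 0.4 week the mean log2 difference from the own control was -3.15 for the slow genes and -2.10 for the fast isoforms, and in adult rats -5.90 and -3.24. In older rats the 2 were alike at 0.4 week (-3.09 and -3.03) and apart at 1 week (-3.50 and -1.78). At 6 weeks the slow genes were at -0.60, -1.46 and -1.01 in young, adult and older rats, beside 0.19, -1.20 and -0.47 for the fast isoforms. At 4 weeks the slow genes were at -0.28, -1.47 and -1.64 in the same ages, beside -0.35, -0.89 and -0.90 for the fast isoforms. The slow mean was the lower of the 2 at 6 weeks in all 3 ages and at 4 weeks in adult and older rats, and the gap was not tested.

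The rest of the fibre's genes moved with them in part. Of 14 measured sarcomere proteins used by both fibre types, 10 were called lower and 1 higher at 0.4 week (median -1.78), where 17.1% of all probe sets were called lower and 14.1% higher. Ldb3, a protein of the Z line, fell by 4.66, Tcap, the cap of titin, by 3.05, Mybpc1, the slow form of myosin binding protein C, by 2.95, and Actn2, the actinin of the Z line, by 2.87. The 1 that rose was Tpm3, a tropomyosin of slow fibres and many other cells, which rose by 0.97 (adjusted p = 0.000583). Of 12 measured genes of oxidative metabolism 9 were called lower at 0.4 week (median -1.68), led by Ckmt2, the mitochondrial creatine kinase of muscle (-4.22), Cox8b, a subunit of cytochrome oxidase (-3.76), Fabp3, a carrier of fatty acids (-3.23), and Cox6a2, another subunit (-2.49). Fabp3 was still lower at 6 weeks (-1.49, adjusted p = 0.0384), the 1 gene of this group called then.

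Of 9 measured genes of calcium handling and slow-fibre control, 3 were called lower and 1 higher at 0.4 week, beside 17.1% and 14.1% of all probe sets. Cacna1s, the calcium channel that couples excitation to contraction, fell by 2.90, Casq2, the calcium store of slow fibres and heart, by 1.55, and Ppp3ca, a catalytic subunit of calcineurin, by 0.57, while Myog, the muscle differentiation factor, rose by 2.30 (adjusted p = 0.0270). Of 11 measured genes of regenerating and developing muscle, 3 were called higher at 0.4 week (Tnnt2 by 2.56, Myog by 2.30 and Chrna1, the receptor subunit for acetylcholine, by 1.84), 7 at 1 week and 3 at 2 weeks, beside 14.1%, 14.6% and 9.49% of all probe sets. Between 0.4 and 1 week and 4 and 6 weeks, 6 of these 11 fell, beside 10.3% of all probe sets, in the weeks over which the slow genes rose. Myog is in both lists, and Tnnt2 is also in that of the heart.

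Markers of marrow, cartilage and bone moved over the same weeks. For comparison, 17.1% of all probe sets were called lower at 0.4 week, 14.1%, 14.6% and 9.49% higher at 0.4, 1 and 2 weeks, and 13.0% higher in the return. Of 6 heart and atrial genes 4 were called lower and 1 higher at 0.4 week. Myh6 fell by 4.41 through a probe set of the family kind that may also read Myh7, and Tnnt2, the 1 that rose, is also made by regenerating skeletal muscle. Of 6 smooth muscle genes 1 was called higher (Acta2, by 1.09), a share near that of all probe sets. The 5 measured erythroid genes and the 4 measured granulocyte genes were all called lower, with medians of -3.30 and -3.65, and all 9 rose between 0.4 and 1 week and 4 and 6 weeks. Of 7 cartilage genes 3 were called higher at 0.4 week and 6 at 1 and at 2 weeks, and of 7 bone genes 5 were called higher and 1 lower at 0.4 week.

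The mean log2 signal of the erythroid genes was 7.94 to 8.40 on the 0.4 week arrays and 11.3 to 11.7 at 0 time. That of the granulocyte genes was 6.87 to 9.68 at 0.4 week and 11.4 to 12.5 at 0 time. That of the heart and atrial genes was 6.71 to 7.33 at 0.4 week and 7.69 to 8.15 at 0 time. The bone markers were bright throughout, with a mean log2 signal between 10.9 and 14.1 over all arrays. That of the 5 slow genes was 8.22 to 10.9 at 0.4 week and 12.8 to 14.1 at 0 time. Fewer muscle fibres in the piece and less RNA per fibre cannot be told apart in such bulk tissue, nor can muscle taken along in dissection, and the part of these shifts in the slow genes' fall was not tested.

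The 5 slow genes resembled each other over the 18 arrays. The brightest probe sets correlated at r = 0.84 to 0.98 over their 10 pairs, highest between Myh7 and Myl3 and lowest between Myl2 and Atp2a2, across arrays that share weeks and ages. Of 3400 bright probe sets with 1 gene each, the 10 most like the mean of the 5 standardized genes belonged to 9 genes. They were Myh6 (r = 0.98), Pkia, an inhibitor of protein kinase A (0.97), Rpl3l, the muscle form of a ribosomal protein (0.97), Hspb6, a small heat shock protein of muscle (0.97), Ckmt2 (0.96 for both of its probe sets), Slc2a4, the insulin-dependent glucose transporter (0.95), Actn2 (0.95), Cox8b (0.95) and Ldhb, the lactate dehydrogenase subunit of oxidative tissue (0.94).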

How the data were processed

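The authors computed the deposited values, linear intensity signals, with Affymetrix Microarray Suite from matched and mismatched probes and scaled every array to a mean of 500. The 2% trimmed mean was 500.0 on each array, the median signal 149 to 188, and 10.6% to 18.0% of probe sets lay below 20. No other samples' values were in the table, and detection calls were not analysed here. The number of arrays limits the precision. Separate replicate arrays of an age and week were not analysed here. With age as a term, p-values of comparisons of weeks therefore measure how the differences between weeks vary from age to age. In tests within single ages, and of age differences in loss, return or late level, they measure the spread between adjacent weeks, pooled over ages. Over all arrays after fracture, with week as a term, they measure how the age difference varies from week to week.

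Of 8799 probe sets, 59 manufacturer's controls were left out. Signals were floored at 20 and taken to log2. The tests used limma 3.58.1 (R 4.3.3), with an intensity trend and Benjamini-Hochberg adjustment over 8740 probe sets at 0.05. Weeks were compared with age and week as terms (10 residual degrees of freedom), ages in 12 cells of age by phase (0 time, 0.4 and 1 week, 2 weeks, 4 and 6 weeks; 6 degrees) and over 15 later arrays (8 degrees). "Called" means adjusted p under 0.05. Of the tests, those of 1 week and of older against young at 4 and 6 weeks were checked on simulated data. The simulation for the latter held no difference between 4 and 6 weeks.

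Names came from the platform's annotation, updated through a RefSeq gene table (GRCr8): 7006 probe sets have 1 symbol, 308 several and 1426 none. The members and lists were chosen with earlier results of these data known. The rule names all members, up to 6 fast-fibre isoforms and up to 4 genes of other lists called at 0.4 week with the largest change (2 for other cell types), and the 10 most alike probe sets. Tpm3, Fabp3 at 6 weeks, the comparison of 4 and 6 weeks with 0 time, and Gapdh were chosen after their values were seen. Figures used matplotlib 3.10.9 in Python 3.11.15. Promoters are RefSeq's.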

Additional observations from a re-analysis of the deposited data

How the results depend on the processing

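In the alternative settings all 85 log2 differences of the 5 genes from 0 time lay below 0 at each of the 5 weeks. Many of these 85 repeat the main estimate, so their sign was fixed in advance. Leaving out another week, the age term or the intensity trend cannot change that estimate. Nor can the limit of 200 on mean signal or the t-test on log2 signals. The count of called genes changed as follows. At 0.4 week (5 called) it was 3 to 5 with 1 age or week left out, and at 1 week (5 called) 1 to 5. Of all probe sets 182 to 1689 were called lower at 0.4 week in these settings, and 129 to 1847 at 1 week. With the mean of a gene's probe sets the Atp2a2 call ended at both weeks, beside 1489 and 1777 of 8734 called lower. At 2 weeks (1 called) the count of the 5 genes was 2 with a floor of 1, 4 with an offset of 50, 3 over probe sets averaging 200 or more, 0 with arrays scaled to the median, 0 with the mean of a gene's probe sets, and 0 to 3 with an age or week left out. Of all 8740 probe sets 904 were called lower at 2 weeks in the main setting. In the same order of settings it was 958, 1118, 751 of 4108, 665, 900 of 8734, and 0 to 1534. At 4 weeks (0 called) the count of the 5 genes was 1 with a floor of 1, an offset of 50 or that limit of 200, and 0 to 1 with an age or week left out. Of all probe sets 155 were called lower in the main setting, then 159, 200, 240 of 4108, and 0 to 449. For 4 and 6 weeks together against 0 time (0 called, chosen after the data were seen) the count of the 5 genes was 1 with a floor of 1 or an offset of 50, 2 with that limit of 200, and 0 to 2 with an age or week left out. Of all probe sets 311 were called lower in the main setting, then 300, 383, 360 of 4108, and 0 to 847. For the return (5 called) the count of the 5 genes was 2 to 5 with an age or week left out. Of all probe sets 285 to 1056 were then called higher. The Atp2a2 return call also ended with arrays scaled to the median, beside 843 probe sets called higher. It ended too without the young 4 and 6 week arrays, beside 594, and with its probe sets averaged, beside 1135 of 8734. The methods' t-test was run on 3 arrays against 3, fewer than the paper had, and without pairing by age. After adjustment it called 0 of the 5 genes at each of the 5 weeks on log2 or linear signals. Of all probe sets it called 115, 43, 3, 1 and 0 lower on log2 signals. Its unadjusted p at 0.4 week was under 0.05 for 5 of 5 on either, beside 1288 (log2) and 1067 (linear) of all probe sets lower. At 4 and 6 weeks it was so for 2 and 1 of 5 on log2 signals, beside 342 and 271. The causes were not tested, apart from the arrays, ages or probe sets that a setting leaves out.

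The median change of all probe sets at 0.4 week was -0.13 with the authors' scaling and -0.02 with arrays scaled to the median. Averaging its probe sets turned the Atp2a2 return to -0.14 and its older minus young difference of the return to 0.61. Quantile normalization turned the older minus young difference of Myl2 at 4 and 6 weeks to 0.12, of the Tnni1 return to 0.050 and of the Atp2a2 loss to 0.079, and scaling to the median turned the last to 0.060. Averaging its probe sets turned the Myl2 difference at 4 and 6 weeks to 0.22 and over the 5 later weeks to 0.039. With a week left out, the difference over the later weeks ran from -0.49 to 0.13 for Myl2 and from -0.047 to 0.76 for Myh7. None of these differences between ages was called in any setting. Without the age term, that is with no replicate block, the counts were 5, 5, 1, 0 and 0 at the 5 weeks, as with it. Older against young at 4 and 6 weeks could not be had without the young 4 and 6 week arrays.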
